A study of Homo sapiens with 12 samples.

Results

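The 10 genes described here are the core of the hypoxia and VEGF pathway: the oxygen sensor EGLN1, the ubiquitin ligase subunit VHL, the HIF subunits HIF1A, EPAS1 and ARNT, the ligands VEGFA, VEGFB and VEGFC, and the receptors KDR and FLT1. They were listed by name, 10 of 20136 protein-coding genes on chromosomes 1 to 22, X and Y, and each was examined for peaks of H3K4me3, a histone mark of active promoters, within 1, 2.5 and 10 kb of its most 5′ annotated end and of any annotated transcript start. The mark was profiled by CUT&RUN, in which an antibody directs a nuclease to chromatin and the released fragments are sequenced, in BON1, a cell line from a human pancreatic neuroendocrine tumor. BON1/TGL/pQ cells served as the control for BON1/TGL/HA-Bcl-xL cells, which overexpress an HA-tagged form of the anti-apoptotic protein Bcl-xL, both grown in puromycin, with 500000 cells per condition. A rabbit anti-mouse IgG reaction measured the background in each line. The labels gave 3 replicates of each of the 4 combinations. Of 12 libraries, 11 entered: 3 control and 2 HA-Bcl-xL libraries for H3K4me3, and 3 of each line for IgG. The first replicate of H3K4me3 in the HA-Bcl-xL line was not analysed here. Values listed by library follow the replicate number, 1, 2 and 3 for control cells and then 2 and 3 for HA-Bcl-xL cells. Nothing in the labels says that replicates came from separate cultures or clones, so the spread between them may be technical. The oxygen supply of the cultures is not given in the sources used here.

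In oxygenated cells, the prolyl hydroxylase EGLN1 (PHD2) modifies the alpha subunits HIF1A and EPAS1 (HIF-2 alpha), and VHL then binds them for ubiquitination and degradation. When oxygen is low the alpha subunits escape this, pair with ARNT (HIF-1 beta) and bind hypoxia response elements at target genes, of which VEGFA is the textbook case. VEGF ligands act on receptor tyrosine kinases, KDR (VEGFR-2) and FLT1 (VEGFR-1), that are best known from endothelial cells. Regulation of the alpha subunits is largely at the level of the protein, which a promoter mark does not measure.

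In BON1 cells EGLN1, HIF1A and ARNT had peaks of the mark in all 5 libraries within 2.5 kb of the 5′ end, as 25.6% of all protein-coding genes did. EPAS1 had one beside a downstream start in 4 of 5. VHL had one in 2 of 5. VEGFB and VEGFA had isolated peaks inside the gene in 2 and 1 libraries. No H3K4me3 peak lay within 10 kb of any start of VEGFC, KDR or FLT1. The other 7 genes had one there in at least 1 library, against 65.3% of all protein-coding genes. None of the 10 genes had a peak in every library of 1 line and in none of the other within 1 kb of the 5′ end. The fit across genes could test EGLN1, HIF1A and ARNT, and none of these 3 passed it.

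Stretches of DNA that the peaks of 3 or more libraries had in common, and the single VEGFA peak, are shown as examples of the sequence under the mark. They are given from GRCh37 (hg19), 5′ to 3′ on the strand of the gene, with CG dinucleotides in capitals, because CG-rich sequence is the usual setting of this mark. Stretches that overlap untranslated regions are not shown. In order, they are the stretch shared by all 5 libraries in an intron of EGLN1 (chr1:231556366-231556482, minus strand), the intronic stretch of HIF1A shared by 4 libraries (chr14:62163552-62163702, plus), the intronic stretch of EPAS1 shared by 3 libraries (chr2:46526668-46526745, plus), the ARNT stretches shared by all 5 libraries in an intron (chr1:150848653-150848711, minus) and by 4 upstream (chr1:150849245-150849323, minus), and the VEGFA peak of control replicate 3 (chr6:43741175-43741254, plus).
EGLN1 intron: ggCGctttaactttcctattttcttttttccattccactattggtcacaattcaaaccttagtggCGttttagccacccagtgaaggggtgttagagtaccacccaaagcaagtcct
HIF1A intron: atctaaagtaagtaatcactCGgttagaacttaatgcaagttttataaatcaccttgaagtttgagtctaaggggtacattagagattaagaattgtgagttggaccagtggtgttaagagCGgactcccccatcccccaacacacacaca
EPAS1 intron: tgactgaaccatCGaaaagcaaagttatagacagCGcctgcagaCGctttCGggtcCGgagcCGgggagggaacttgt
ARNT intron: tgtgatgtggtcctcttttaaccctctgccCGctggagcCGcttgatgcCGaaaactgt
ARNT upstream: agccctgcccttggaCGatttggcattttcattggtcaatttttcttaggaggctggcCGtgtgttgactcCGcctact
VEGFA peak: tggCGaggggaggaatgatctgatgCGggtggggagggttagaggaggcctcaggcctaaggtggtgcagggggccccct

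The shared stretches differed in composition. The EPAS1 stretch held 6 CG dinucleotides in 78 bases and was 55.1% G or C, whereas the HIF1A stretch held 2 in 151 bases and was 40.4% G or C. The EGLN1 stretch also held only 2, in 117 bases, at 43.6% G or C. All 3 of these lay in introns. None of the 6 stretches held a hypoxia response element core (ACGTG or GCGTG, on either strand). They were only 59 to 151 bases long, and the share of other peaks of such length with a core is not given here.

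The lists give no read totals, so the number of fragments at each summit was solved from the deposited fold and -log10 p. The H3K4me3 lists held 10247 to 17711 peaks and the median summit held 9 to 12 fragments. The IgG lists held 1674 to 2113 peaks in control cells and 244 to 268 in HA-Bcl-xL cells. The lowest summit in an H3K4me3 list had 3 fragments. A gene without a listed peak was below the limit of its list, which does not show that the mark was absent. Of the markers chosen for the cell type, the neuroendocrine granule genes CHGB and SCG2 had a peak in all 5 H3K4me3 libraries within 1 kb of the 5′ end, and 5 of 7 neuroendocrine markers had one in at least 1 library, against 21.3% and 48.2% of all genes for these rules. Of the other 5 markers, SYP had one in 2 libraries, CHGA in 1, TPH1 in the 2 HA-Bcl-xL libraries only (a pattern of 0.844% of all genes), and INSM1 and ENO2 in none. Within 2.5 kb INSM1 had a peak in all 5 libraries and ENO2 in 1. None of the 5 endothelial, 4 leukocyte and 4 fibroblast markers found in the annotation had one in any library within 1 kb of the 5′ end, and within 2.5 kb COL1A1, a fibroblast marker, had one in HA-Bcl-xL replicate 2.

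**Figure D1:**
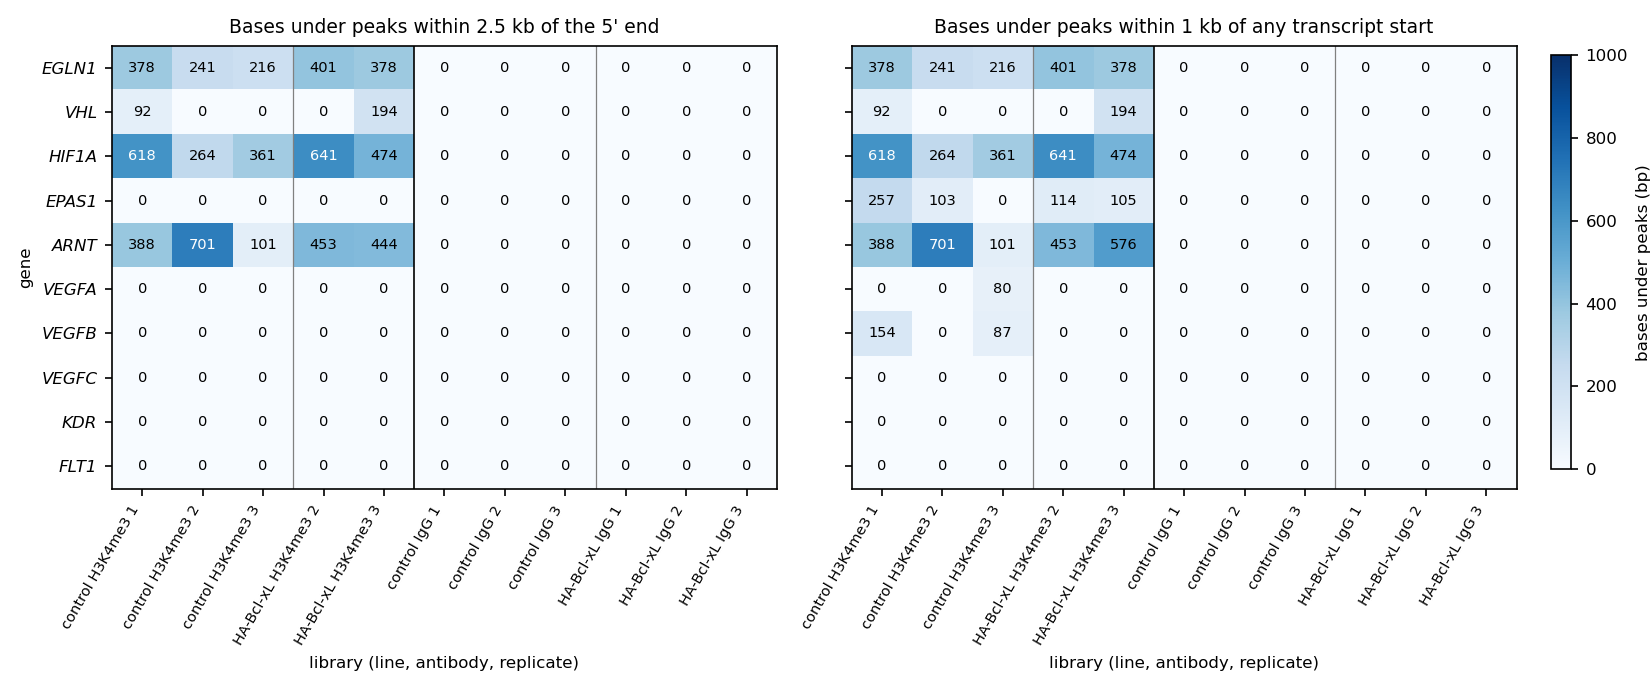
Bases under peaks (bp, number and shade) for each gene (rows) in each of the 11 libraries (columns), within 2.5 kb of the 5′ end (left) and within 1 kb of any transcript start (right). EGLN1, HIF1A and ARNT are above 0 in all 5 H3K4me3 libraries in both panels, EPAS1, VEGFA and VEGFB are above 0 only in the right panel, and all 6 IgG libraries are at 0 for all 10 genes.

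The narrowest window, within 1 kb of the 5′ end, held peaks of 3 of the 10 genes. The number of genes with a peak was 3, 1 and 1 in control cells, against 2 and 3 in HA-Bcl-xL cells. ARNT was the 1 gene with a peak in all 5 libraries, a rule that 21.3% of all protein-coding genes met. HIF1A, ARNT and VHL had a peak in at least 1 library, against 48.2% of all genes. Within 2.5 kb of the 5′ end HIF1A and EGLN1 joined ARNT with a peak in all 5, against 25.6% of all genes. Within 1 kb of any transcript start the same 3 genes had one in all 5, against 26.5%, and 7 genes had one in at least 1 library, against 56.6%. Within 10 kb of the 5′ end 5 genes, VEGFB, HIF1A, EPAS1, ARNT and EGLN1, had one in all 5, against 29.7%. The share of these 10 genes was below that of all genes in all 5 libraries within 1 kb of the 5′ end and above it in all 5 within 10 kb. Within 10 kb of any start it was below in HA-Bcl-xL replicate 2, at 50% against 53.4%, and the 10 kb counts include VEGFB, most of whose peaks were nearer to another gene. With 10 genes, each gene moves the share by 10 percentage points.

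**Figure D2:**
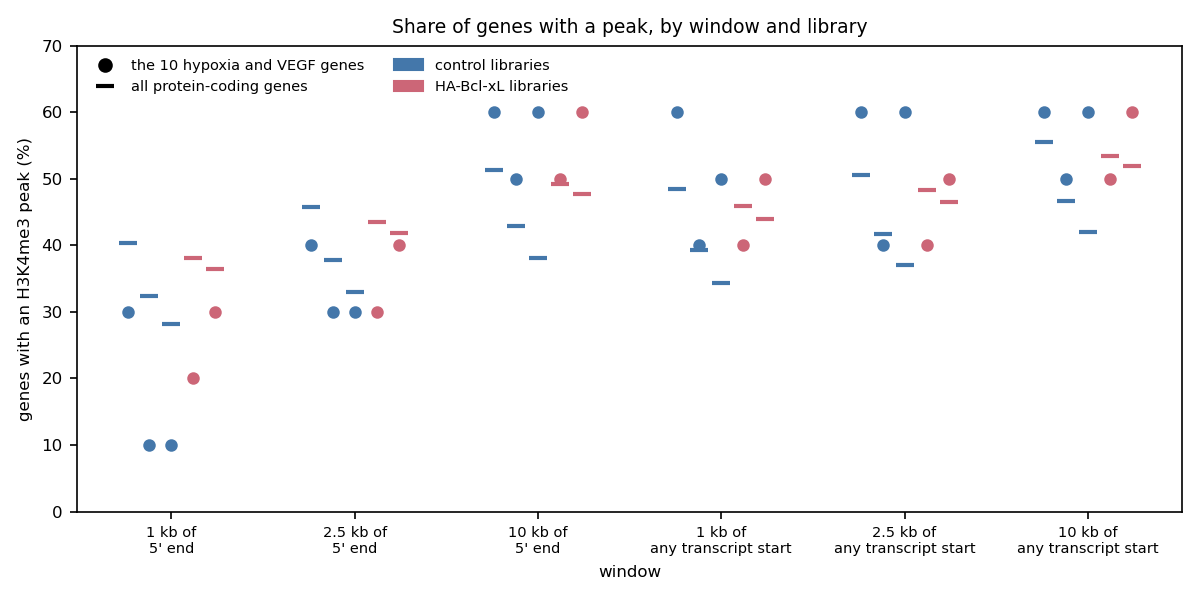
Percent of the 10 hypoxia and VEGF genes (dots) and of all 20136 protein-coding genes (dashes) with an H3K4me3 peak, for each H3K4me3 library of the control line (blue) and the HA-Bcl-xL line (red) and for 6 windows. Within 1 kb of the 5′ end the dots lie at 10 to 30% and the dashes at 28.2 to 40.4%, and within 1 kb of any start the dots lie at 40 to 60%.

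EGLN1 (chromosome 1, minus strand, 231499497 to 231558033) had 1 peak of nearly the same height in each library. Bases under peaks within 2.5 kb of its 5′ end were 378, 241 and 216 in control cells, against 401 and 378 in HA-Bcl-xL cells. Control replicate 1 and the HA-Bcl-xL libraries were high, and the groups touched at 378. The summits held 19, 17, 17, 17 and 19 fragments in the same order. The peak lay in an intron with its summit 1439 to 1675 bp downstream of the 5′ end, outside the 1 kb window. Coding transcripts of EGLN1 also start at 231556938, 231556972 and 231557008, and the summits were 344 to 580 bp downstream of the first of these. Ranked by -log10 p within its own list, the peak stood at percentile 66.9 to 80.9. The median over all genes with a peak near a start, by their strongest peak, was 64.1 to 68.7 across libraries.

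VHL (chromosome 3, plus strand, 10183462 to 10195351) had low peaks at the 5′ end itself, in 2 libraries. Bases under peaks within 2.5 kb were 92, 0 and 0 in control cells, against 0 and 194 in HA-Bcl-xL cells. The 1 library above 0 in control cells was replicate 1 and in HA-Bcl-xL cells replicate 3, so the groups overlapped. The upstream peaks of these libraries had summits at -118 and -120 bp with 6 and 5 fragments. HA-Bcl-xL replicate 3 had a second peak in a coding exon, at +347 bp, also with 5 fragments. Their ranks, 34.6 and 18.9, were below the median of genes with a peak. The pattern of 2 of 5 libraries within 1 kb of the 5′ end was shared by 5.80% of all genes.

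HIF1A (chromosome 14, plus strand, 62162231 to 62214977) had 618, 264 and 361 bases under peaks within 2.5 kb in control cells, against 641 and 474 in HA-Bcl-xL cells. Control replicate 2 was lowest and HA-Bcl-xL replicate 2 highest, and the groups overlapped. The highest summits within 2.5 kb had 20, 12, 17, 19 and 18 fragments in that order. All 9 peaks of the gene lay in an intron, with summits 762 to 1792 bp downstream of the 5′ end. Coding transcripts of HIF1A also start at 62162258, 62162495 and 62164340. In control replicates 1 and 3 and both HA-Bcl-xL libraries, 1 summit each lay at -732 to -645 bp from the last of these. The region chr14:62163116-62163730 was covered in part in all 5 libraries, with no base common to all of them. Its left edge differed between libraries, and it reached into the 1 kb window in control replicate 1 and both HA-Bcl-xL libraries but began 1020 and 1139 bp from the 5′ end in control replicates 2 and 3. HA-Bcl-xL replicate 3 also had a peak of 18 fragments wholly inside that window, at +762 bp, that was listed in no other library. The strongest peak ranked at percentile 31.7 in control replicate 2 and at 73.2 to 84.3 in the other 4 libraries. An antisense non-coding RNA, HIF1A-AS1, starts at 62162610. All 9 peaks lay beyond that start, from 62162924 on. A promoter mark near starts on both strands cannot be assigned to 1 strand.

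EPAS1 (chromosome 2, plus strand, 46520806 to 46613836) showed how the choice of start decides the result. Within 2.5 kb of the most 5′ end, which belongs to a non-coding transcript, it had no peak. That stretch was poor in CG dinucleotides, with an observed-to-expected ratio of 0.114 over 2 kb, against 0.667 to 0.965 for the other 9 genes. Coding transcripts start at 46523747 and 46524546, and within 1 kb of any start the bases under peaks were 257, 103 and 0 in control cells, against 114 and 105 in HA-Bcl-xL cells. Control replicate 3 was the 1 library at 0. The peak, inside chr2:46524648-46524904 in an untranslated region, had its summit 301 to 322 bp downstream of the start at 46524546, with 13, 14, 19 and 16 fragments in the 4 libraries. A second, intronic peak, inside chr2:46526558-46526767, was listed in control replicates 1 and 3 and HA-Bcl-xL replicate 2, so each of the 5 libraries had at least 1 peak of EPAS1 within 2.5 kb of a start.

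ARNT (chromosome 1, minus strand, 150782189 to 150849184), the partner of both alpha subunits, had 14 H3K4me3 peaks over the 5 libraries, the most of the 10 genes when peaks nearer to another gene's start are left out. Bases under peaks within 2.5 kb were 388, 701 and 101 in control cells, against 453 and 444 in HA-Bcl-xL cells. Control replicate 3 was lowest and control replicate 2 highest, so both HA-Bcl-xL values lay inside the control range. The highest summits had 25, 15, 9, 19 and 11 fragments. Peaks fell into an upstream group with summits at -134 to -100 bp, in 4 libraries, and an intronic group with summits at +473 to +546 bp, in all 5. Further intronic peaks had summits at +1028 bp in control replicate 2, +706 bp in HA-Bcl-xL replicate 2 and +884 bp in HA-Bcl-xL replicate 3. Control replicate 3 lacked the upstream peak. In control replicates 1 and 2 the upstream peak reached over the 5′ end. HA-Bcl-xL replicate 2 had a separate peak of 8 fragments just inside the gene, at +116 bp. HA-Bcl-xL replicate 3 had a further peak of 5 fragments in a coding exon (chr1:150808761-150808892), 83 bp from an internal start.

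**Figure D3:**
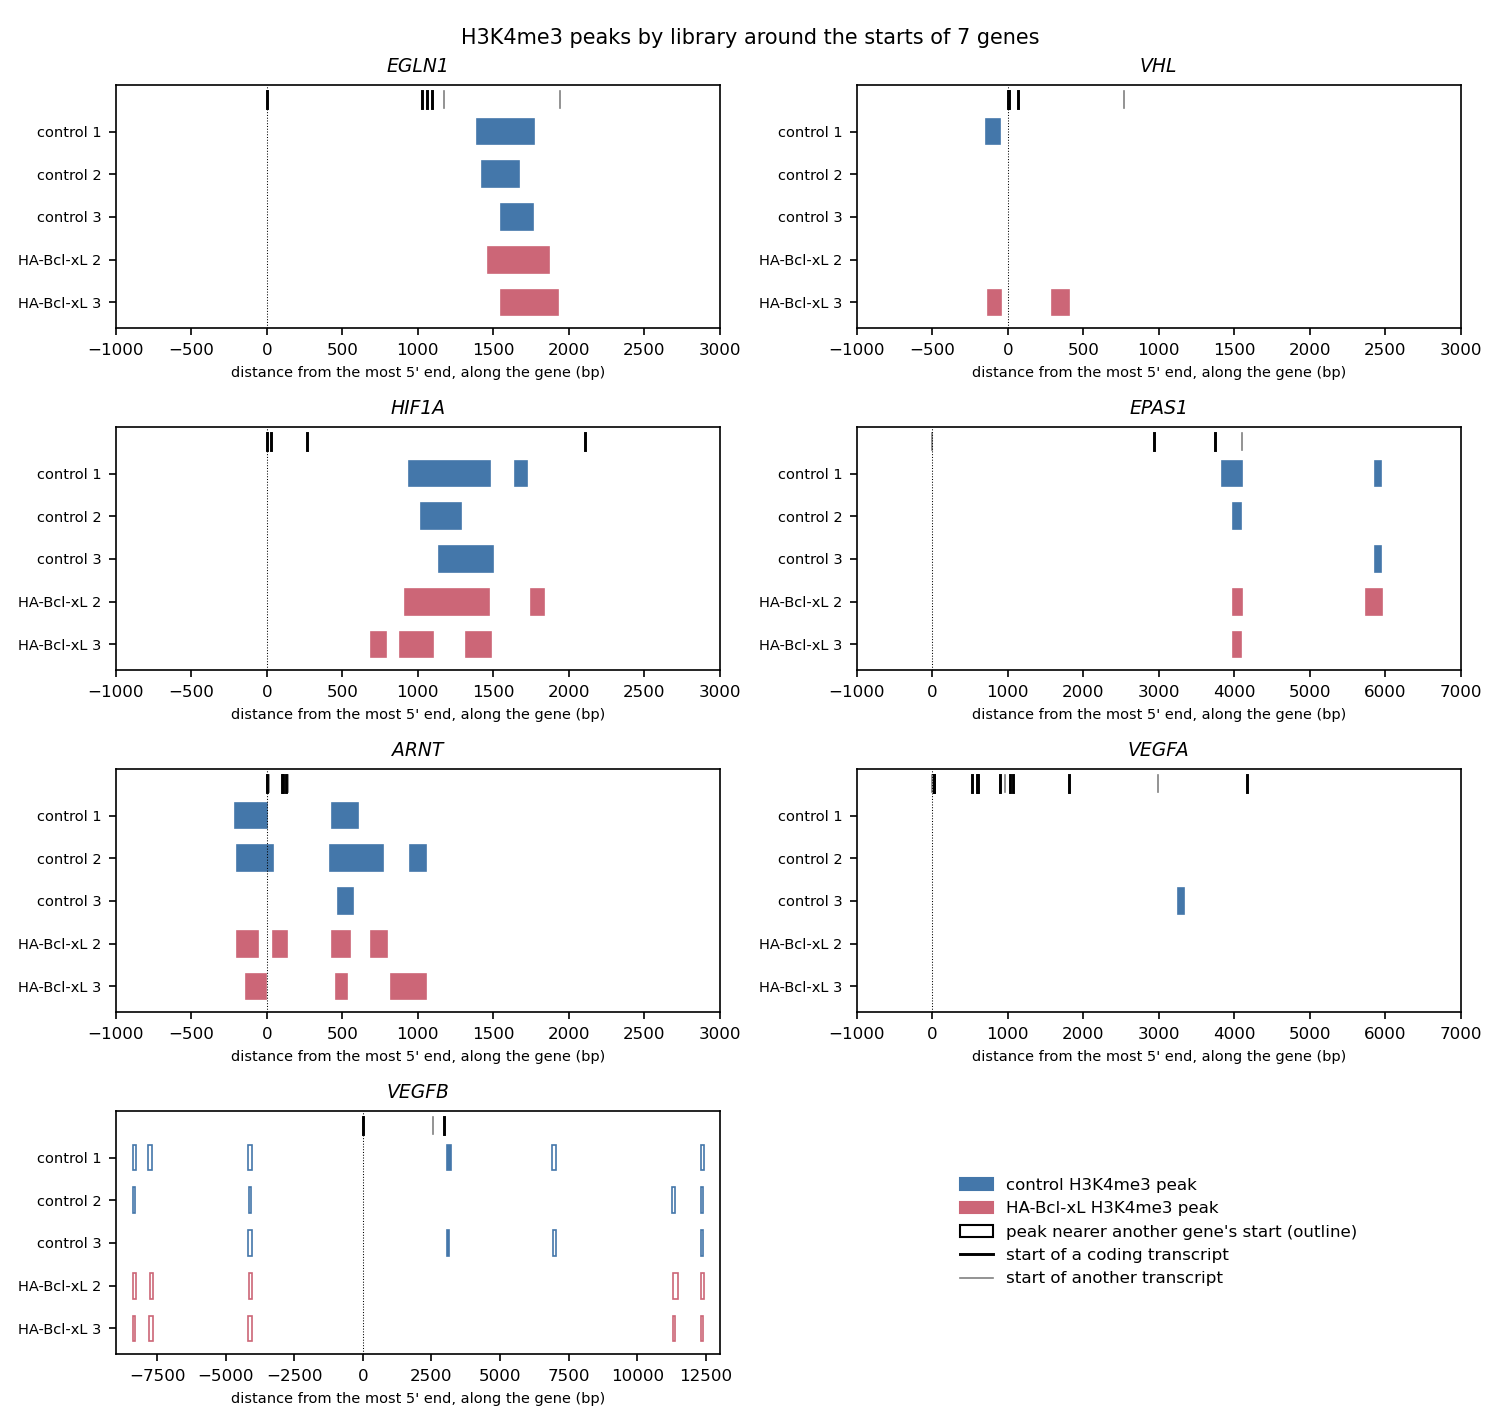
H3K4me3 peaks of the 7 genes that had any within 10 kb, by library (rows, blue control and red HA-Bcl-xL), along the distance from the most 5′ end in bp. Ticks above the rows mark starts of coding (black) and other (grey) transcripts; peaks drawn as outlines are nearer to the start of another gene. The EGLN1 summits stack between 1439 and 1675 bp in all 5 libraries, and ARNT peaks flank the 5′ end.

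VEGFA (chromosome 6, plus strand, 43737921 to 43754224), the ligand that hypoxia is best known to induce, had no peak in any library within 2.5 kb of the 5′ end. Its 15 distinct starts held 1 peak within 1 kb, in control replicate 3: 80 bp wide, 8 fragments at the summit, 3282 bp downstream of the 5′ end, in an exon of a retained-intron transcript that starts at 43740909. This peak ranked at percentile 39.1 of its list, the shortest of the 5 H3K4me3 lists, and the other 4 libraries were at 0. By bases under peaks within 2.5 kb VEGFA was identical to 9371 other genes, all at 0 in every library, so no nearest genes are named. This pattern was that of 46.5% of all genes, VEGFB, VEGFC, KDR, FLT1 and EPAS1 among them.

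VEGFB (chromosome 11, plus strand, 64002056 to 64006736), a ligand of FLT1, had 154, 0 and 87 bases within 1 kb of any start in control cells, against 0 with HA-Bcl-xL in either library. These values overlap, since control replicate 2 was also at 0. The peaks had 12 and 9 fragments and lay 3161 and 3091 bp downstream of the 5′ end, over a coding exon and untranslated region beside the coding start at 64005008. VEGFB counted as positive in all 5 libraries only in the 10 kb windows. There, 14 of its 16 H3K4me3 peaks within 10 kb of the 5′ end were nearer to the start of a neighbouring gene (DNAJC4, FKBP2, NUDT22 or TRPT1), and in the 3 libraries without the peaks near 64005008 that call rests on such peaks alone. For the other genes with peaks within 10 kb, 0 peaks were nearer to another protein-coding gene. VEGFC (chromosome 4, minus strand, 177604689 to 177714076), a ligand best known for lymphatic growth, had no peak in any library or window.

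The receptors KDR (chromosome 4, minus strand, 55944648 to 55991762) and FLT1 (chromosome 13, minus strand, 28874483 to 29069282) had no H3K4me3 peak within 10 kb of any start. In that window 65.3% of all genes had one in at least 1 library. FLT1 had 1 H3K4me3 peak elsewhere, in an intron in HA-Bcl-xL replicate 2, with 4 fragments at the summit and its edge 60627 bp from the nearest start. The same gene had IgG peaks in control IgG replicate 1, 1 upstream with its summit at -4955 bp and 1 in an intron, each with 3 fragments. It was the 1 gene of the 10 with a control IgG peak within 10 kb of the 5′ end, against 3.98% of all genes. HIF1A had IgG peaks of 6 and 5 fragments beyond its 3′ end, in control and HA-Bcl-xL IgG replicate 2. Within 2.5 kb of any start all 10 genes were at 0 in all 6 IgG libraries.

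**Figure D4:**
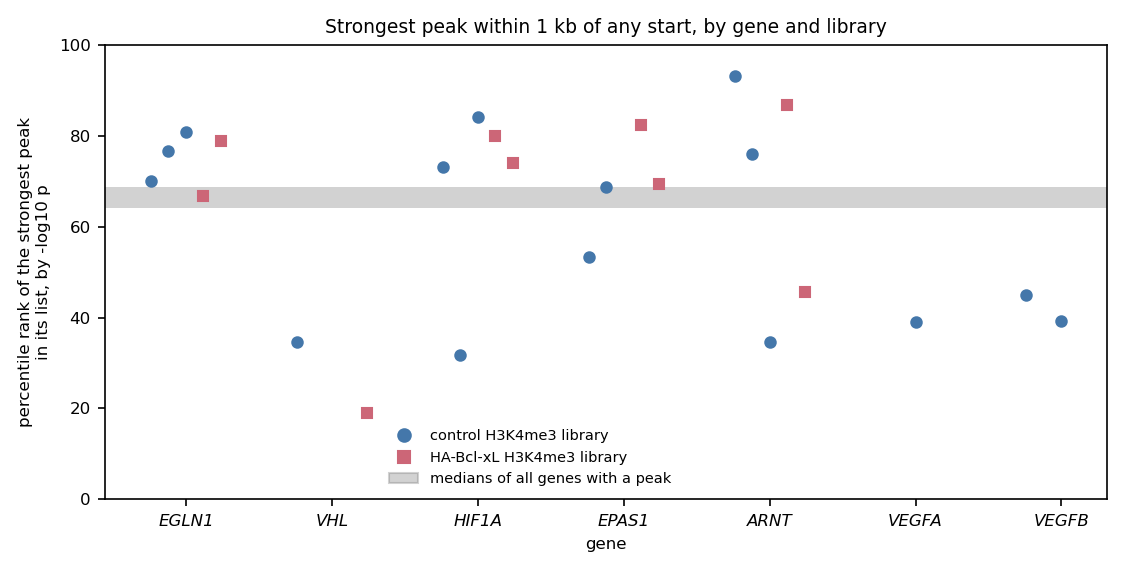
Percentile rank, by -log10 p within its own list, of the strongest peak within 1 kb of any start, for each gene and H3K4me3 library (blue circles control, red squares HA-Bcl-xL; libraries without a peak have no point). The grey band spans the medians over all genes with a peak, 64.1 to 68.7; EGLN1 lies at 66.9 to 80.9, while VHL, VEGFA and VEGFB lie below the band.

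The genes differed in the place of their peaks along the gene. Within 2.5 kb of the 5′ end, 24 of the 30 H3K4me3 peaks of these genes had their summit downstream of the 5′ end. Over all genes, 60.4 to 61.7% of peaks within that distance had it downstream, depending on the library. By gene, 9 of 9 summits of HIF1A and 5 of 5 of EGLN1 were downstream, against 9 of 13 of ARNT and 1 of 3 of VHL. HIF1A and EGLN1 also have coding starts more than 1 kb further along the gene. The 30 peaks repeat across libraries, so they are not independent.

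Most of the genes without a peak within 1 kb of the 5′ end were rich in G and C. In the 2 kb around the 5′ end, VEGFB was 69.3% G or C, FLT1 66.4%, EGLN1 64.9%, VEGFA 64.0% and VEGFC 63.8%, all within the upper 2 deciles of all genes ranked by this measure. In those deciles 16.7% and 9.83% of genes had a peak in all 5 libraries within 1 kb of the 5′ end, against 29.2% in the decile of ARNT (53.7% G or C) and 29.0% in that of VHL (56.1%). VEGFA, VEGFB, VEGFC, FLT1 and EGLN1 had none there in any library. In their deciles 54.2% and 47.1% of genes had a peak in at least 1 library. The deciles of ARNT and VHL had 57.8% and 60.8%. From decile 5 upward the share with a peak in all 5 libraries fell with G and C content over all genes. The part of this in the absence of peaks at the ligands and FLT1 was not tested. KDR, at 59.0%, lay in a decile where 25.8% of genes had one.

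Hypoxia response element cores were searched in the 300 bases from 250 before to 49 after each 5′ end, on both strands. ACGTG was found at 1 of the 10 genes, EGLN1, and at 22.7% of all protein-coding promoters. GCGTG was found at 6 of 10 and at 41.6% of all promoters, and either core at 7 of 10 and 53.5%. ARNT, KDR and EPAS1 held neither core in this window. The upstream 250 bases of EGLN1, the 1 promoter with ACGTG, are shown with the core in capitals, on the strand of the gene (chr1:231558034-231558283).
EGLN1 promoter: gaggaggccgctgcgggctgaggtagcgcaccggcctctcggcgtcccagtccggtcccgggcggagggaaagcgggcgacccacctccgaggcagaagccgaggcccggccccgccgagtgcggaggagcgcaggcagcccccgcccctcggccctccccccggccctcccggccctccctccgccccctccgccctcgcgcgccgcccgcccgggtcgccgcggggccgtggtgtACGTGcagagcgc

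HA-Bcl-xL and control cells were compared to ask whether overexpression of Bcl-xL altered the mark at these genes. The number of the 10 genes with a peak within 1 kb of the 5′ end was 1.67 ± 1.15 in control (SD, n = 3) against 2.5 ± 0.707 with HA-Bcl-xL (SD, n = 2). Their difference of 0.833 genes was smaller than the pooled SD of 1.03, and its sign turned with the window, to -0.5 within 1 kb of any start. No gene had a peak with HA-Bcl-xL in each library and none in control cells, a pattern of 0.844% of all genes, and none had the reverse, a peak in each control library only, a pattern of 0.248%. Without control replicate 1, HIF1A entered the first pattern in this window. Within 2.5 kb it had a peak in all 5 libraries.

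EGLN1, HIF1A and ARNT could be tested in a fit across all 5151 genes with a peak within 2.5 kb in all 5 libraries. On log2 bases under peaks, with each library centred on its median, ARNT was 0.45 higher in HA-Bcl-xL cells (SE 0.552), EGLN1 0.41 higher (SE 0.407) and HIF1A 0.38 higher (SE 0.428). The adjusted p from limma was 0.996 for each, and the 95% intervals reached from -0.70 to 1.61, -0.44 to 1.26 and -0.51 to 1.28. On log2 fragments at the highest summit the changes were -0.19 for ARNT (SE 0.277), -0.11 for EGLN1 (SE 0.247) and 0.07 for HIF1A (SE 0.263), with limma's adjusted p of 0.983, 0.998 and 0.998. The changes in bases and in fragments had opposite signs for ARNT and EGLN1, and all the intervals include 0. Over all genes 0% were called on either measure: 0 of 5151 had an adjusted p under 0.05 with limma, 269 and 289 had an unadjusted p under 0.05, and the smallest adjusted p was 0.733 and 0.730. The intervals in bases do not exclude an increase of 1 log2 unit at any of the 3 genes.

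Gene by gene, the difference in mean bases under peaks within 2.5 kb was 143 for HIF1A, 111 for EGLN1, 66.3 for VHL and 51.8 for ARNT, each higher in HA-Bcl-xL cells. Leaving out 1 library turned the sign for VHL (-30.7 without HA-Bcl-xL replicate 3) and for ARNT (-96 without control replicate 3). The exact two-sided permutation p was 0.4, 0.4, 0.8 and 0.8, where 0.2 is the smallest that 2 libraries against 3 can give. EGLN1 had 278 ± 87.2 bases in control (SD, n = 3) against 390 ± 16.3 with HA-Bcl-xL (SD, n = 2). HIF1A had 414 ± 183 and 558 ± 118 bases. Against IgG, the H3K4me3 libraries of EGLN1, HIF1A and ARNT lay above 0 in both lines and the IgG libraries at 0. No p is given for these 3, since a peak in every H3K4me3 library and none in IgG fixes it at its smallest value. For VHL the exact permutation p was 1 in control cells and 0.8 in the HA-Bcl-xL line.

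**Figure D5:**
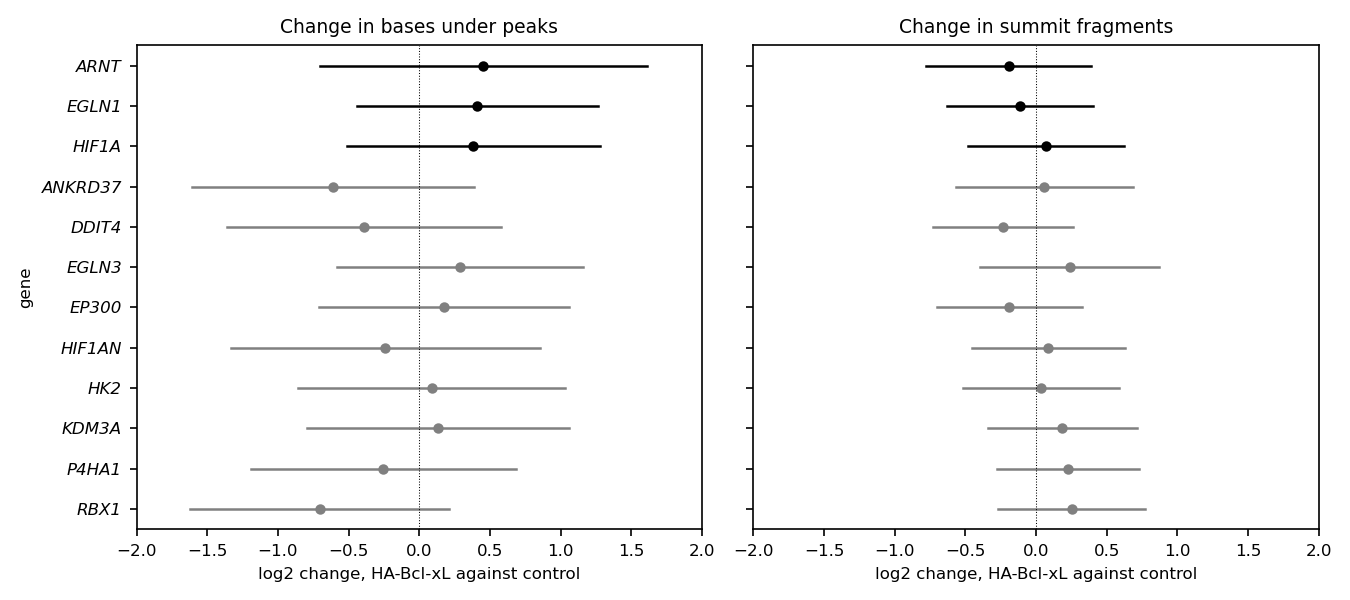
Log2 change in HA-Bcl-xL against control cells, with the 95% interval from limma, in bases under peaks (left) and in fragments at the highest summit (right), for the 3 of the 10 genes with a peak in all 5 libraries (black) and the 9 genes of the wider pathway list that also had one (grey). All intervals include 0.

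The wider pathway list held 33 further genes: ligands, receptors and coreceptors, HIF subunits, oxygen sensors, the VHL complex, coactivators and hypoxia-induced targets. Within 1 kb of the 5′ end 7 of 33 had a peak in all 5 libraries, and 21 of 33 had one in at least 1, against 21.3% and 48.2% of all genes, so the first share lay at the background. All 3 further oxygen sensors and all 4 subunits of the VHL ligase had a peak in at least 1 library. Among the 5 further ligands, receptors and coreceptors 3 did, and none did in all 5. These groups hold 3 to 5 genes each, and the difference between them was not tested.

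Among oxygen sensors, HIF1AN (FIH), the asparaginyl hydroxylase of the alpha subunits, had one of the strongest peaks of its lists, with 30 to 44 fragments at the highest summit and a mean percentile rank of 99.0 over the 5 libraries. EGLN3 (PHD3) had a mean rank of 85.7 and 408, 253 and 245 bases under peaks within 2.5 kb in control cells, against 475 and 319 in HA-Bcl-xL cells. RBX1, the RING subunit of the VHL ligase, had a mean rank of 87.2 and EP300, a coactivator recruited by HIF, one of 61.2. Among the 17 hypoxia-induced targets 3 had a peak in all 5 libraries, and 9 had one in at least 1, both close to the 21.3% and 48.2% of all genes. ANKRD37, with a mean rank of 65.3, and DDIT4 (REDD1), an mTOR inhibitor, with 64.2, ranked highest of those 3. None of the 9 genes of the list that the fit could test passed it, with 4 higher and 5 lower in bases and a median log2 change of -0.24, against -0.02 over all genes tested. In fragments 7 were higher and 2 lower, with a median of 0.087 against -0.02, so the median differed in sign between the measures.

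ARNT2, a paralogue of ARNT best known from neurons, was the 1 gene of the 33 with a peak in each HA-Bcl-xL library and in no control library, a pattern of 0.844% of all genes. Its bases under peaks within 2.5 kb were 0 in all 3 control libraries, against 123 and 97 with HA-Bcl-xL. The groups did not overlap, but the 2 peaks lay at different places, with summits at +840 and -466 bp and 7 and 10 fragments. The longest of the 5 lists, with 17711 peaks, was that of control replicate 1. Those of control replicates 2 and 3 held 12159 and 10247 peaks, fewer than the 16379 and 15497 of the HA-Bcl-xL libraries. No gene of the list had the opposite pattern.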

How the data were processed

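Peaks were called per library by the authors, and the deposited lists give for each peak a score, a ratio (fold enrichment) and -log10 p and q values. The submitters' processing notes name bcl2fastq 2.20, Trimmomatic 0.36, Bowtie2 2.2.9, MACS2 2.1.1, deepTools 3.5.1 and hg19; their settings, duplicate handling and use of a control are not given in the sources used here. Each deposited score equalled 10 times the -log10 q with decimals dropped. Scores, folds and -log10 values are the authors' and were used only within a list, for ranks and filters, and to solve the fragments at each summit, taking fold as (n + 1) / (background + 1) and p as a Poisson tail. A whole n matched within 0.001 for 95.9 to 99.97% of peaks per list. The lists do not record if n is in fragments or in reads.

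Genes and starts came from GENCODE 44 lifted to GRCh37, with duplicate symbols dropped. A gene had a peak with at least 1 bp in the window. Bases under peaks and summit fragments within 2.5 kb were tested with limma 3.58.1 (R 4.3.3) with Benjamini-Hochberg adjustment, after a test on simulated data, and single genes by exact permutation (scipy 1.17.1). The other tools were matplotlib 3.10.9, pysam 0.24.0, pandas 2.3.3 and numpy 2.4.6 in Python 3.11.15. The 10 genes, the pathway and marker lists and the tests were chosen with earlier results of these data known. Beyond the 10 genes, those named are pathway genes with a peak in every library of 1 line and none of the other and, per role, the 2 with the highest mean rank among those with a peak in all 5 libraries; the neuroendocrine markers, COL1A1 and the neighbours of VEGFB were named after their values were seen. Alternatives were other windows and starts, equal list lengths, a minimum of 5 on -log10 q, removal of peaks overlapping IgG, an overlap of 50 bp, no centring, a filter of 2 libraries with a pseudocount of 100 bp or 1 fragment, leaving out each library in turn, and a replicate block. PCR copies may be among the fragments, so errors from counting are lower limits. The sequence at VHL is not reported here.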

Additional observations from a re-analysis of the deposited data

How the results depend on the processing

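The count of genes with a peak in all 5 H3K4me3 libraries, 1 within 1 kb of the 5′ end, followed the window. It was 3 within 2.5 kb of the 5′ end or 1 kb of any start, 4 within 2.5 kb of any start, 5 within 10 kb of the 5′ end or any start, and 0 when -log10 q had to reach 5. Of all genes, 21.3% met the rule within 1 kb of the 5′ end. In the other windows, in the order given, 25.6%, 26.5%, 28.7%, 29.7% and 33.0% did. The share for the minimum on -log10 q is not given here. The difference between the lines in genes with a peak, 0.833, became -0.5 within 1 kb and -0.833 within 2.5 kb of any start, and lay between 0.333 and 1.5 with 1 library left out. The count of genes with a peak in HA-Bcl-xL libraries only was 0 to 1 with 1 library left out, the 1 being HIF1A without control replicate 1.

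The fit on bases called 0 of 5151 genes, 2 with a replicate block and 0 to 3 with 1 library left out. The fit on fragments called 0, 1 with a replicate block, and 190 of 9448 (144 higher and 46 lower in HA-Bcl-xL cells) with genes kept from 2 libraries on and a pseudocount of 1 fragment added, 2 changes made together; none of these calls was of the 10 genes. The block leaves 1 residual degree of freedom. The numbers were not taken to pair the libraries, since the labels do not say what a number shares. The deviations of same-numbered libraries had correlations of 0.00455 and 0.0297. With 2 HA-Bcl-xL libraries, whose deviations mirror each other, this check is weak. The adjusted p of EGLN1, HIF1A and ARNT lay between 0.881 and 1 over all settings. Direction changed for ARNT in bases with equal list lengths (-0.11), for EGLN1 in fragments with no centring (0.027), and with a -log10 q of at least 5 for the mean bases of VHL (-30.7) and ARNT (-76.5). The log2 change of HIF1A in bases, 0.38, was 0.0071 with equal list lengths and 0.14 without control replicate 2. With 1 library left out, the log2 change of ARNT ranged from -0.14 (without control replicate 3) to 1.10 in bases and from -0.58 to 0.18 (without HA-Bcl-xL replicate 3) in fragments. In fragments EGLN1 ranged from -0.25 to 0.037 (without control replicate 3) and HIF1A from -0.13 (without control replicate 2) to 0.29. The difference in mean bases ranged from -30.7 (without HA-Bcl-xL replicate 3) to 163 for VHL, from 59.7 (without HA-Bcl-xL replicate 2) to 245 (without control replicate 1) for HIF1A, from 80 to 161 for EGLN1 and from -96 (without control replicate 3) to 204 for ARNT.

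The lowest listed summit held 3 fragments, so weaker marks were not detectable, and 0.2 is the smallest p for a single gene between the lines.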
